A study of Mus musculus with 24 samples.

Results

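Interferon-stimulated genes are the genes that cells switch on when an interferon reaches its receptor. A list of 48 of them was followed in the liver and duodenum of mice with and without the hemochromatosis gene Hfe. The members were chosen by name, with earlier results of these data known. Some had already been reported as repressed in Hfe-/- mice from the same arrays. Casp4 and Samd9l were among these. Counts of members called are therefore set beside the percentage of all genes as a description, not as a test of an independent list. Each gene was represented by the probe set that carries its symbol alone and has the highest mean log2 signal over all arrays. Of the 48 genes, 45 could be measured in this way and all 45 passed the filter on low signals, out of 12956 genes of the array that passed it. Isg15 and Psme2 were present only on probe sets shared with another gene, and Ifi44 was not in the probe annotation. The study asked which transcripts change when Hfe is disrupted in a strain that loads iron heavily, DBA/2 (D2), and in one that loads less, C57BL/6 (B6). Male mice 7 weeks old gave 8 groups of 3 arrays: liver of D2 Hfe-/-, D2 wild-type, B6 Hfe-/- and B6 wild-type mice, and duodenum of the same 4 kinds of mice. Each of the 24 arrays held the RNA of 1 mouse and 1 tissue, and all mice had the same diet and were fasted before they were killed. The Hfe-/- mice were produced in the animal facility of the study and the wild-type mice were bought, so origin and genotype cannot be told apart. The whole animal lacked Hfe in the knockout groups, and RNA was taken from dissected liver and duodenum with all the cell types they hold.

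Type I interferons signal through the receptor of Ifnar1 and Ifnar2 and the kinases Jak1 and Tyk2 to a complex of STAT proteins with Irf9, which binds the interferon-stimulated response element (ISRE) in front of target genes. Interferon gamma uses Ifngr1 and Ifngr2 and a STAT dimer that binds the gamma-activated site (GAS). The targets include sensors of viral nucleic acid, enzymes and membrane proteins that block viral growth, the immunoproteasome and peptide transporter that feed antigen presentation, and GTPases that attack intracellular parasites. Many of them are active at a low level without infection.

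RefSeq promoter windows (assembly GRCm38.p6, 250 bases before to 50 bases after the gene start) were at hand for 34 of the 45 genes. The ISRE letters, GAAA followed by any 2 bases and GAAA again, were searched on both strands and stood in the windows of 16 of the 34 genes (47.1%), against 3.99% of all 27025 genes with a window. The GAS letters TTCNNNGAA, which read the same on both strands, stood in 7 of the 34 (20.6%), against 9.55% of all genes. A match of letters is not evidence that a factor binds. The windows below belong to 5 of the genes called in a liver comparison, and capitals mark the ISRE letters. Of the others called there that have a window, Irf9, Psmb8, Ifi47 and Ifi35 have no ISRE match, and Trim30a has a match. Ifit3, which encodes an antiviral protein that binds viral RNA with its Ifit partners, has 2 matches, both on the strand opposite to the gene. Irgm1, a GTPase of the defense against intracellular pathogens, has 2 matches that overlap, within 30 bases of its start.
Ifit3, chr19:34583279-34583578, plus strand: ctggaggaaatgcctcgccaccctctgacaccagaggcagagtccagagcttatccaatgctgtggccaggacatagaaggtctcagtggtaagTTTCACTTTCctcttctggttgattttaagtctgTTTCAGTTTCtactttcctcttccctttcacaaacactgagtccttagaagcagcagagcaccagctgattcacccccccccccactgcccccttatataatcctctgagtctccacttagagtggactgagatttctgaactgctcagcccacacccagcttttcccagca
Irgm1, chr11:48871371-48871670, minus strand: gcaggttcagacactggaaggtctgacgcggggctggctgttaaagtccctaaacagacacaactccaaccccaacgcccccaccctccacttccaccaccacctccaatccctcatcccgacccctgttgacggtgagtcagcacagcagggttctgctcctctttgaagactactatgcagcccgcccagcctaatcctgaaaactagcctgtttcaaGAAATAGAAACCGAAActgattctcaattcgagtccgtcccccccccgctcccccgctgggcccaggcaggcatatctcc
Igtp, another GTPase of that family, has 1 match 34 to 25 bases before its start, and the GAS letters lie just upstream of it. Ifih1, the sensor of long double-stranded RNA also called MDA5, has its match after the gene start.
Igtp, chr11:58199306-58199605, plus strand: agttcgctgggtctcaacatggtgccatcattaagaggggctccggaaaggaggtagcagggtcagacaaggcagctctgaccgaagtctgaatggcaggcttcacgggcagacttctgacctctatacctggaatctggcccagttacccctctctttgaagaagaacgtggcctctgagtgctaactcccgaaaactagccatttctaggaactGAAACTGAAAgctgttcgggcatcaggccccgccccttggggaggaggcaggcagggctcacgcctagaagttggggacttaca
Ifih1, chr2:62646206-62646505, minus strand: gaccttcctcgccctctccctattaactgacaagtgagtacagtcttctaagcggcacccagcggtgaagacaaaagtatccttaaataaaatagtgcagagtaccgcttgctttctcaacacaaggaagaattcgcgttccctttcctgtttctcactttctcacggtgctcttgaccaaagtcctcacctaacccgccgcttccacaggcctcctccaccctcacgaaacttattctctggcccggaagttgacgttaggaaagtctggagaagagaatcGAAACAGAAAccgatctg
Samd9l, a cytoplasmic protein that restricts viruses and cell growth, is shown because it was called lower in Hfe-/- liver of both strains. The exact ISRE letters are not in its window, which says nothing about the factors that act on it.
Samd9l, chr6:3399522-3399821, minus strand: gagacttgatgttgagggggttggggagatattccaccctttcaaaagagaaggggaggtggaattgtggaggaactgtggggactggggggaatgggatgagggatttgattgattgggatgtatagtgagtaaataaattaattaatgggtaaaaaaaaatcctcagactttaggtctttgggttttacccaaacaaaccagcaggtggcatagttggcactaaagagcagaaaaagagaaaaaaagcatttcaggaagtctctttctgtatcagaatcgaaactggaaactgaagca

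The deposited signals were checked against the genotypes: the Hfe signal on each of the 6 liver arrays of Hfe-/- mice was between 70.4 and 98.8, against 434 to 691 on the 6 wild-type arrays, and in duodenum between 15.7 and 45.1, against 76.6 to 105. The summed signal of 7 hepatocyte markers was 65762 to 96008 on liver arrays and 12784 to 16357 on duodenum arrays. In wild-type mice their log2 differences, duodenum minus liver, ran from -14.1 to -0.85 with a median of -9.47. The sum in duodenum therefore does not speak for all of them. The summed signal of 7 enterocyte markers, one of which (Fabp1) hepatocytes share, was 31380.0 to 38832 on duodenum arrays and 13518 to 22009 on liver arrays. Several arrays stood apart for the interferon-stimulated genes. Duodenum B6 Hfe-/- mouse 2 was above both other arrays of its group in all 45 genes, by a median of 1.48 on the log2 scale, while 32.4% of all genes were above both there. Duodenum D2 wild-type mouse 1 was above both others in 40 genes (33.2% of all genes), by a median of 0.74. Liver D2 Hfe-/- mouse 1 was above both others in 37 genes (31.5% of all genes), by a median of 0.55. Other arrays were low. Liver B6 wild-type mouse 1 was below both others in 33 genes (33% of all genes), by a median of -0.28, duodenum D2 wild-type mouse 3 in 29 genes (35.8% of all genes), by -0.46, duodenum B6 Hfe-/- mouse 3 in 27 genes (32.8% of all genes), by -0.79, and liver B6 Hfe-/- mouse 3 in 26 genes (32.6% of all genes), by -0.33. On the array of duodenum B6 Hfe-/- mouse 2, the signal was above the mean of the other arrays of the group by 3.42 (log2) for Ifit1, 3.28 for Usp18 and 3.20 for Rsad2, but by 0.07 for Casp4. The results are therefore also given without single arrays.

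**Figure D1:**
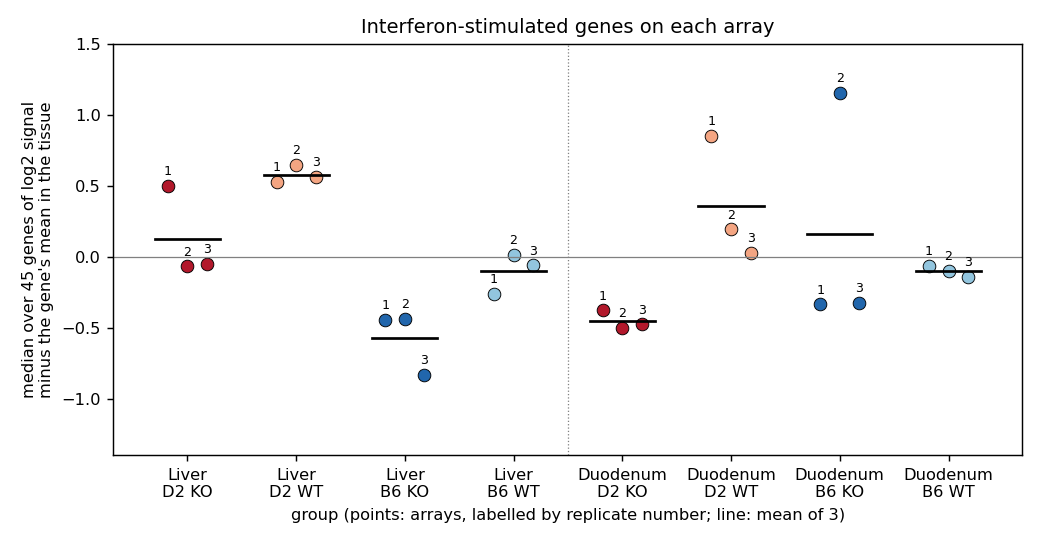
Median over the 45 interferon-stimulated genes of the log2 signal minus the gene's mean in the tissue, for each of the 24 arrays; points are arrays with their replicate number and lines are means of 3. In liver the 3 D2 wild-type arrays (0.53, 0.65 and 0.56) lie above the 3 D2 Hfe-/- arrays (0.50, -0.07 and -0.05) and above all B6 arrays, and in duodenum B6 Hfe-/- mouse 2 (1.15) and D2 wild-type mouse 1 (0.85) stand apart.

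In the liver of D2 mice, 5 of the 45 genes were lower in Hfe-/- than in wild-type mice and none was higher, at an adjusted p of at most 0.1 from limma (Benjamini-Hochberg over all probe sets). Of all genes tested, 1.58% were called lower and 1.73% higher. The 5 were Samd9l, Ifit3, Usp18, Irgm1 and Parp9. The difference was below 0 in 39 of 45 genes with a median of -0.45, against a median of 0.02 over all genes, and all 3 Hfe-/- arrays were below all 3 wild-type arrays in 16 of 45 genes, against 8.59% of all genes. An unadjusted p under 0.05 was reached by 20 of the 45, against 15% of all genes. Since the tissue was measured whole, fewer cells of a type and less RNA per cell cannot be told apart in any of these results. In this and the following paragraphs, signals are given for replicates 1, 2 and 3 of a group, and differences are of log2 signals.

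Samd9l had signals of 103, 59.2 and 74.4 in D2 Hfe-/- livers, against 124, 137 and 140.3 in D2 wild-type livers, a difference of -0.80 (standard error 0.18, adjusted p = 0.0403). The groups did not overlap. Usp18, the protease that removes ISG15 from proteins and dampens the type I interferon receptor, had 433, 141 and 177 in D2 Hfe-/- livers, against 489, 510.3 and 521 in wild-type livers, a difference of -1.20 (standard error 0.30, adjusted p = 0.0666). Its first Hfe-/- array lay just below the wild-type arrays and the other two were far below it. Ifit3 showed the same arrangement, with 274, 149 and 161 in D2 Hfe-/- livers, against 349, 384 and 363 in wild-type livers, a difference of -0.96 (standard error 0.24, adjusted p = 0.0609). Irgm1 had 611, 311 and 307 in D2 Hfe-/- livers, against 699, 741 and 637 in wild-type livers, a difference of -0.83 (standard error 0.22, adjusted p = 0.0832). Parp9, which together with Dtx3l forms a complex that ADP-ribosylates and ubiquitinates, had 449, 303 and 304 in D2 Hfe-/- livers, against 538, 473 and 463 in wild-type livers, a difference of -0.50 (standard error 0.14, adjusted p = 0.0988). For these 4 genes too the groups did not overlap, but the highest Hfe-/- value always came from mouse 1.

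By role, the sensors and signal relay (7 genes: Ddx58, Ifih1, Dhx58, Zbp1, Irf7, Irf9 and Stat2) all had differences below 0 in D2 liver with a median of -0.44, and none was called. Among the 15 antiviral effectors 2 were called and 12 were below 0, with a median of -0.62, and the values ran between -1.94 for Mx1, a GTPase that blocks influenza virus, and 0.76 for Oas3, a synthase of the second messenger that activates RNase L. Both rested on low signals with large errors. Mx1 had 37.3, 29.5 and 1.87 in D2 Hfe-/- livers, against 56.1, 47.7 and 43.2 in wild-type livers, with a standard error of 0.79, and Oas3 had 10.6, 28.0 and 3.27, against 24.8, 3.09 and 2.64, with one of 1.10. The 6 genes of ISG15 and ubiquitin-like or ADP-ribose modification were all below 0 (median -0.44, 2 called), as were the 6 interferon-inducible GTPases (median -0.80, 1 called). The 4 genes of antigen processing stayed closer to the wild type, with a median of -0.09, a range of -0.48 for Tap1, the peptide transporter, to 0.13 for Psme1, an activator of the proteasome, and no call. The 7 other induced genes (Xaf1, Rtp4, Ifi35, Ifi27l2a, Casp4, Sp100 and Lgals3bp) were below 0 in 5 cases with a median of -0.26 and no call. Among genes that missed the threshold, Ifit1 differed by -1.25 (standard error 0.37, adjusted p = 0.118), Rsad2, the antiviral enzyme viperin, by -0.80 (standard error 0.34, adjusted p = 0.316), Herc6, the mouse ligase for ISG15, by -0.66 (standard error 0.23, adjusted p = 0.203) and Irf7, the factor that drives type I interferon genes, by -0.38 (standard error 0.20, adjusted p = 0.436).

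The count in D2 liver rested on single arrays. For this and all later fits with an array left out or a block, the percentage of all genes called is not given here. Such counts show how the calls depend on arrays, and are not a result about these genes. Without D2 Hfe-/- mouse 1 the count was 22 genes, all lower, and the median was -0.67. Without any one of the 3 D2 wild-type arrays or of D2 Hfe-/- mice 2 and 3 it was 0, and without B6 wild-type mouse 1 or mouse 2, which add only to the estimate of spread, it was 3. With the hybridization run as a block it was 0 and 38 genes were below 0. Runs were inferred here from the hybridization times of the arrays and are not recorded labels. All 3 D2 Hfe-/- livers were hybridized in 1 run together with D2 wild-type mouse 3. Within that run the median difference was -0.42, with 38 genes below 0, and the difference was -0.87 for Samd9l, -1.24 for Usp18 and -0.96 for Ifit3. Beside these values, the median difference was -0.03 for 13 T and NK cell markers, 0.05 for 9 B and plasma cell markers and -0.09 for 11 macrophage and dendritic cell markers in D2 liver, and none of these markers was called. Their part in the result was not tested.

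In the liver of B6 mice, 3 of 45 genes were lower in Hfe-/- than in wild-type mice and none was higher, where 0.517% of all genes were called lower and 0.633% higher. These were Samd9l, Ifih1 and Irf9. The difference was below 0 in 43 of 45 genes with a median of -0.52, and in 19 genes all Hfe-/- arrays were below all wild-type arrays, against 9.4% of all genes. An unadjusted p under 0.05 was reached by 21 of the 45, against 12.7% of all genes. Samd9l had 78.2, 67.6 and 66.3 in B6 Hfe-/- livers, against 139, 139.7 and 128 in B6 wild-type livers, a difference of -0.94 (standard error 0.18, adjusted p = 0.037). Ifih1 had 243, 252 and 264 in B6 Hfe-/- livers, against 364, 419 and 415 in wild-type livers, a difference of -0.65 (standard error 0.14, adjusted p = 0.0507). Irf9, the DNA-binding partner of the STAT proteins downstream of type I interferon, had 151, 151 and 132 in B6 Hfe-/- livers, against 198, 233 and 251 in wild-type livers, a difference of -0.65 (standard error 0.15, adjusted p = 0.0796). For all 3 genes the groups did not overlap.

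Here too the sensors and signal relay were below 0 in 7 of 7 genes (median -0.52, 2 called), the antiviral effectors in 13 of 15 (median -0.65, 1 called), the modifying enzymes in 6 of 6 (median -0.44) and the GTPases in 6 of 6 (median -0.26). All 4 genes of antigen processing and all 7 other induced genes were below 0 in B6 liver, with medians of -0.48 and -0.60. In this comparison Ifit1 differed by -0.97 (standard error 0.37, adjusted p = 0.314), Ifit3 by -0.93 (standard error 0.24, adjusted p = 0.115), Oas1a by -0.66 (standard error 0.18, adjusted p = 0.132), Parp14, an ADP-ribosyltransferase, by -0.64 (standard error 0.17, adjusted p = 0.129) and Ddx58, the RNA sensor RIG-I, by -0.41 (standard error 0.16, adjusted p = 0.325), and none of these was called. Psmb9, a catalytic subunit of the immunoproteasome, had 109, 111 and 60.3 in B6 Hfe-/- livers, against 143, 168 and 151 in wild-type livers, a difference of -0.77 (standard error 0.20, adjusted p = 0.118). Tap1 had 80.1, 61.1 and 57.2 in B6 Hfe-/- livers, against 90.2, 119.5 and 139 in wild-type livers, a difference of -0.81 (standard error 0.23, adjusted p = 0.152). Neither passed the threshold, although the groups did not overlap. The 2 genes lie head to head on mouse chromosome 17, and their promoter windows, on opposite strands, share 275 bases. Likewise not called, with groups that did not overlap, were Dhx58, a regulator of RNA sensing, with a difference of -1.08 (standard error 0.27, adjusted p = 0.105) and Usp18 with -1.10 (standard error 0.30, adjusted p = 0.137).

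Without D2 Hfe-/- mouse 1, which enters the B6 comparison only through the shared spread, 9 genes were called in B6 liver. Without B6 wild-type mouse 2 the count was 0, without B6 wild-type mouse 3 it was 1, and without B6 Hfe-/- mouse 1 or mouse 3 or any one of the D2 wild-type arrays it was 2. Without D2 Hfe-/- mouse 2 or mouse 3 it was 5. It was 0 with the run as a block. The 3 B6 wild-type livers shared a run with B6 Hfe-/- mouse 1, and within it the median difference was -0.43, with 39 genes below 0. Samd9l differed by -0.79, Ifih1 by -0.71 and Irf9 by -0.59. Markers of macrophages and dendritic cells were lower beside these genes, with a median of -0.45 over 11 markers and 9 below 0, and Lyz2, the lysozyme of these cells, was called at -0.98 (standard error 0.21, adjusted p = 0.0653). The medians were -0.34 for T and NK cell markers (8 of 13 below 0) and -0.32 for B and plasma cell markers (8 of 9 below 0). Signals of the T and NK cell markers were low, with sums of 240 to 319 in B6 Hfe-/- and 343 to 434 in wild-type livers. The summed signal of the macrophage and dendritic cell markers was 2355 to 3922 in B6 Hfe-/- livers and 3665 to 4866 in wild-type livers. Their part in the result was not tested.

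Samd9l was the one gene of the 45 called in the liver of both strains, and 38 genes had differences below 0 in both. The difference between the knockout effects of the strains was called for none of the 45 genes by limma, where 0.224% of all genes were called, and 3 had an unadjusted p under 0.05, against 10.3% of all genes. Without D2 Hfe-/- mouse 1 it was called for 2. An effect that passed in 1 strain was therefore not shown to be particular to it. Parp9 had a difference of -0.05 (standard error 0.14, adjusted p = 0.932) in B6 liver, beside the call in D2 liver, and Ifih1 one of -0.36 (standard error 0.14, adjusted p = 0.256) in D2 liver, beside the call in B6 liver.

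**Figure D2:**
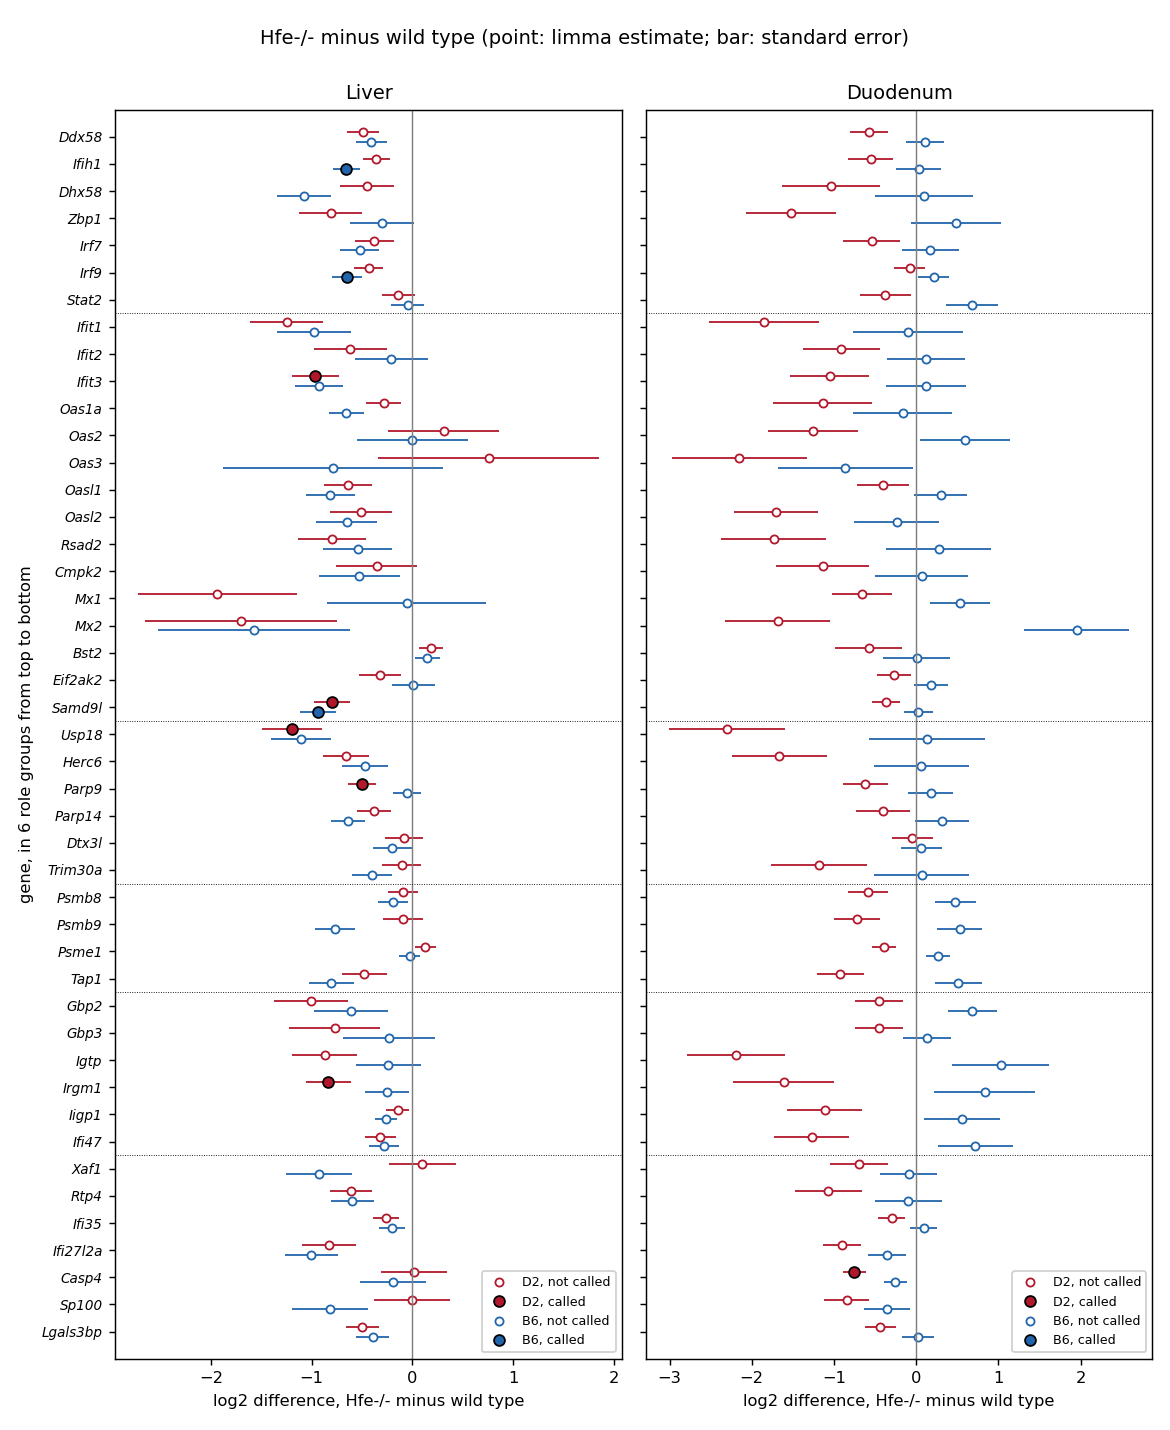
Log2 difference, Hfe-/- minus wild type, of each of the 45 genes in liver (left) and duodenum (right), with D2 in red and B6 in blue; points are limma estimates, bars are standard errors and filled points are called. In liver most points of both strains lie left of 0, and in duodenum all D2 points lie left of 0 while 36 of the 45 B6 points lie right of it, before mouse 2 of the B6 Hfe-/- group is left out.

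Between wild-type mice, the liver of D2 had higher signals than that of B6 for most of these genes. At an adjusted p of at most 0.01, 9 of 45 genes were higher in D2 (2.5% of all genes) and 1 was lower (2.55% of all genes). The difference was above 0 in 38 of 45 genes with a median of 0.73, and all D2 arrays were above all B6 arrays in 32 genes, against 15.6% of all genes. An unadjusted p under 0.05 was also reached by 32 genes, against 22.7% of all genes. The 6 GTPases were all above 0 with no overlap of the groups, and 4 of them were called.

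Igtp had 1287, 1368 and 1152 in D2 wild-type livers, against 215, 341 and 286 in B6 wild-type livers, a difference of 2.20 (standard error 0.32, adjusted p = 0.000381). Rtp4, a receptor transporter protein with antiviral action, had 897, 854 and 872 in D2, against 258, 276 and 334 in B6, a difference of 1.60 (standard error 0.21, adjusted p = 0.000158). In both genes the groups lay far apart. Ifit3 had 349, 384 and 363 in D2, against 119, 182 and 148 in B6, a difference of 1.31 (standard error 0.24, adjusted p = 0.00229). Irgm1 had 699, 741 and 637 in D2, against 309.8, 295 and 388 in B6, a difference of 1.07 (standard error 0.22, adjusted p = 0.00614). In both genes every D2 signal was above every B6 signal. Ifi35, an interferon-induced leucine zipper protein, had 1368, 1230.4 and 1309 in D2, against 707, 686 and 739 in B6, a difference of 0.87 (standard error 0.13, adjusted p = 0.000387). Ifi47, a further GTPase, had 617, 558 and 667 in D2, against 311, 424 and 333 in B6, a difference of 0.79 (standard error 0.15, adjusted p = 0.00368). Igtp, Rtp4 and Ifi35 stayed called in each of the 12 fits that left out 1 liver array. Rtp4 and Ifi35 lost the call when all probe sets of a gene were averaged. Igtp and Ifi35 lost it with no variance trend, and Ifi35 also with the run as a block.

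Irf9 had 403, 382 and 362 in D2, against 198, 233 and 251 in B6, a difference of 0.76 (standard error 0.15, adjusted p = 0.00432). Psmb8, another catalytic subunit of the immunoproteasome, had 287, 380.5 and 366 in D2, against 174, 225 and 216 in B6, a difference of 0.75 (standard error 0.15, adjusted p = 0.00521). Iigp1, a GTPase that is loaded onto parasite vacuoles, was the ninth gene called higher, with 0.65 (standard error 0.11, adjusted p = 0.00165). Trim30a, a ubiquitin ligase that restrains inflammatory signaling, was the one gene called lower. It had 74.5, 107 and 92.8 in D2, against 148, 181 and 175 in B6, a difference of -0.89 (standard error 0.20, adjusted p = 0.00941). A second probe set of Trim30a gave 0.44 (adjusted p = 0.458), so that its direction differed between probe sets. Several genes with large differences missed the threshold, among them Mx2, an antiviral GTPase, with 2.81 (standard error 0.95, adjusted p = 0.0931), Cmpk2, a mitochondrial nucleotide kinase, with 1.48 (standard error 0.40, adjusted p = 0.0339), Ifit1 with 1.46 (standard error 0.37, adjusted p = 0.0206) and Zbp1, a sensor of Z-form nucleic acid, with 1.30 (standard error 0.32, adjusted p = 0.0177). Samd9l and Ifih1, both called in a knockout comparison, had differences between the strains of -0.01 (standard error 0.18, adjusted p = 0.978) and -0.03 (standard error 0.14, adjusted p = 0.936).

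Without B6 wild-type mouse 1, D2 wild-type mouse 1 or D2 wild-type mouse 3, 4 genes were called between the strains, and without D2 wild-type mouse 2 it was 5. Without B6 wild-type mouse 2 or mouse 3 the count was 6, and without D2 Hfe-/- mouse 1 it was 16. With the run as a block 2 genes were called. The run that held all 3 B6 wild-type livers also held D2 wild-type mouse 1, and within it the median difference was 0.60, with 2.22 for Igtp, 1.64 for Rtp4 and 1.25 for Ifit3. In that run the D2 array was on another fluidics station than the B6 arrays, so strain and station cannot be told apart within it. Beside these genes, the median difference was -0.89 for T and NK cell markers and -0.43 for macrophage and dendritic cell markers, and Cd5l, a protein of Kupffer cells, was called lower in D2 at -0.93 (standard error 0.20, adjusted p = 0.00819). Also called between the strains were 1 of 7 hepatocyte markers, lower in D2, and 1 of 11 pancreatic acinar markers, higher in D2. The T and NK cell markers had low signals in liver. Over 13 markers these summed to 221 to 377 in D2 and 343 to 434 in B6 wild-type livers.

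**Figure D3:**
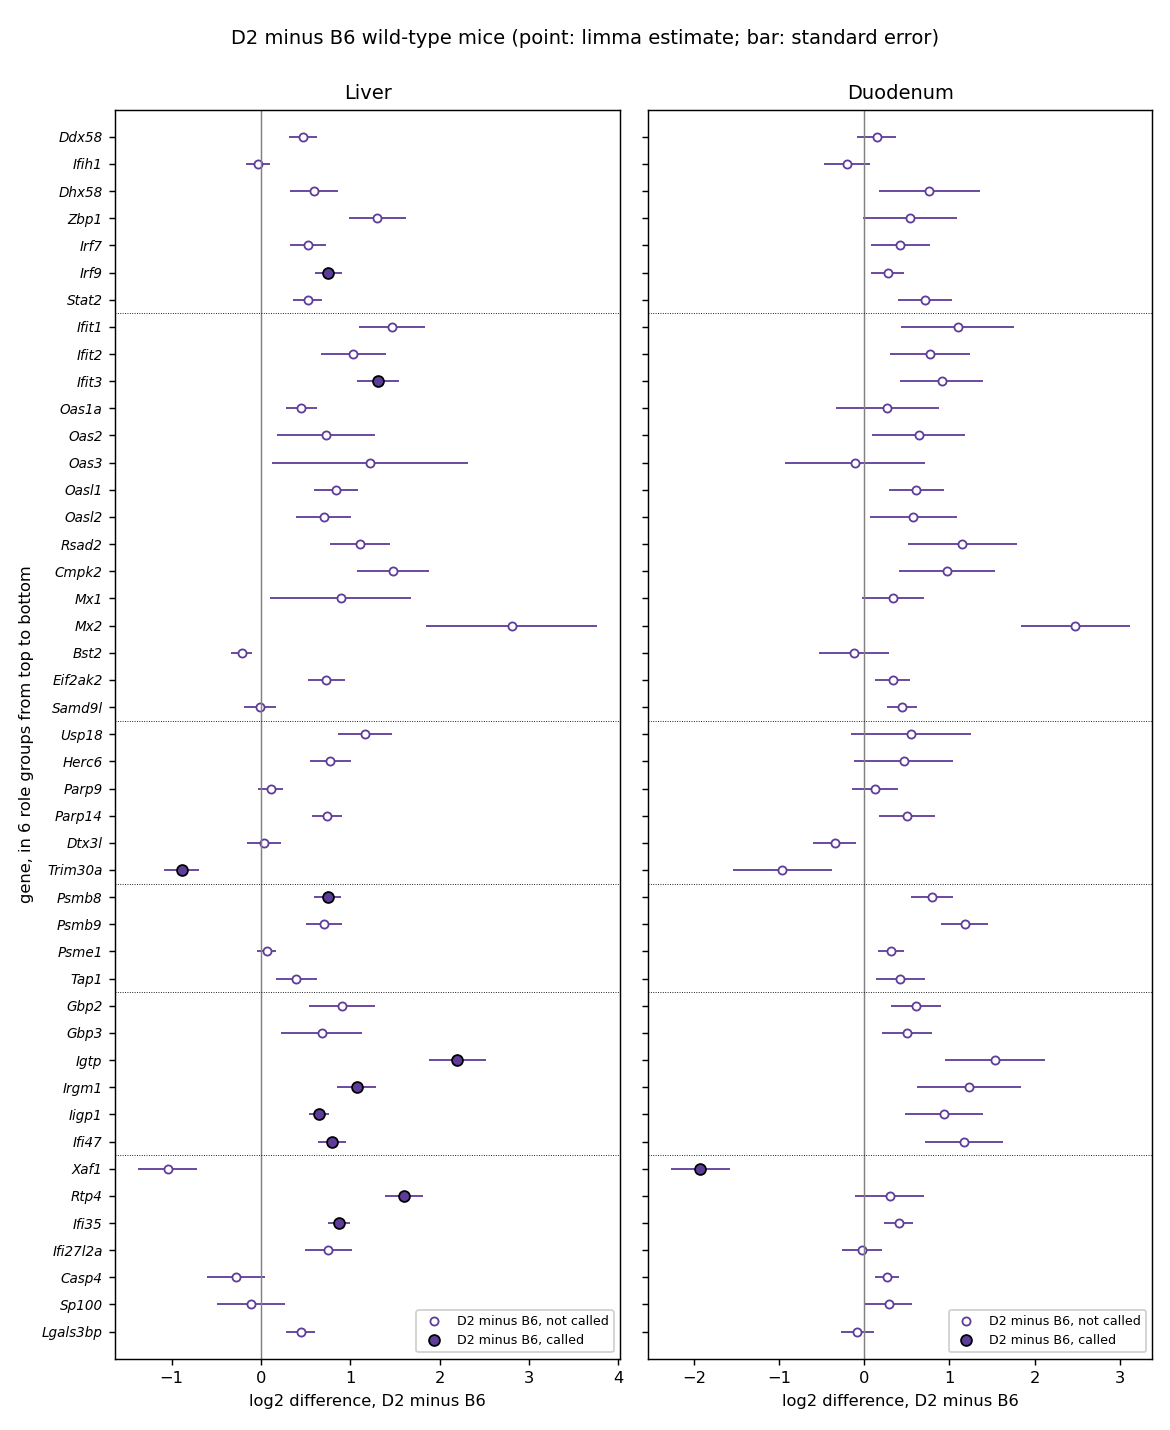
Log2 difference, D2 minus B6 wild-type mice, of each of the 45 genes in liver (left) and duodenum (right); points are limma estimates, bars are standard errors and filled points are called. In liver 38 of 45 points and in duodenum 37 of 45 lie right of 0, with Trim30a and Xaf1 left of it in both, although a second probe set of each of these 2 genes gave the other direction.

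In the duodenum of D2 mice, 1 of 45 genes, Casp4, was called lower in Hfe-/- than in wild-type mice and none was called higher, where 0.154% of all genes were called lower and 0.332% higher. Casp4 encodes the mouse inflammatory caspase that responds to intracellular lipopolysaccharide. It had 152, 108 and 114 in D2 Hfe-/- duodenum, against 220.4, 182 and 223 in D2 wild-type duodenum, a difference of -0.75 (standard error 0.14, adjusted p = 0.0808). The difference was below 0 in all 45 genes with a median of -0.85, against 0.01 over all genes, and the groups did not overlap in 34 of them, against 7.56% of all genes. An unadjusted p under 0.05 was reached by 25 of the 45, against 12.6% of all genes. The largest differences had large errors as well. Usp18 had 39.3, 39.9 and 34.5 in D2 Hfe-/- duodenum, against 352, 217 and 85.4 in wild-type duodenum, a difference of -2.30 (standard error 0.70, adjusted p = 0.24). Igtp had 237, 118 and 119.6 in D2 Hfe-/- duodenum, against 1450.3, 449.8 and 491 in wild-type duodenum, a difference of -2.19 (standard error 0.59, adjusted p = 0.19). The 3 wild-type signals of each gene were spread widely, and those of Hfe-/- mice lay below them.

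By role, the median difference in D2 duodenum was -1.19 for the GTPases, -1.14 for the antiviral effectors, -0.90 for the modifying enzymes, -0.75 for the other induced genes, -0.65 for antigen processing and -0.56 for the sensors and signal relay. All 4 genes of antigen processing had groups without overlap. Tap1 had 167, 157 and 152 in D2 Hfe-/- duodenum, against 459.6, 214 and 277 in wild-type duodenum, a difference of -0.92 (standard error 0.28, adjusted p = 0.246), and Psmb9 one of -0.72 (standard error 0.28, adjusted p = 0.333). Ifi27l2a had a difference of -0.90 (standard error 0.23, adjusted p = 0.175) and Oasl2, a member of the oligoadenylate synthetase family, one of -1.70 (standard error 0.51, adjusted p = 0.235). The genes with differences nearest 0 were Dtx3l at -0.05 and Irf9 at -0.08.

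Without D2 wild-type mouse 1 no gene was called, the median was -0.68 and 44 genes were below 0. No gene was called either without D2 wild-type mouse 3, D2 Hfe-/- mouse 2 or mouse 3, B6 wild-type mouse 2 or mouse 3, or B6 Hfe-/- mouse 1. Without D2 Hfe-/- mouse 1 it was 2 genes, with a median of -0.96. Without B6 Hfe-/- mouse 2, an array outside this comparison whose spread enters the fit, 14 genes were called, and without both that array and D2 wild-type mouse 1 it was 9, all lower. All D2 duodenum arrays shared 1 run, and D2 wild-type mouse 3 also shared the fluidics station of the 3 Hfe-/- arrays. Against that array alone the median difference was -0.56, with 43 genes below 0, -0.86 for Casp4 and -1.71 for Igtp. None of the markers of other cells was called. All 13 T and NK cell markers were below 0 with a median of -0.58, and their summed signal was 2662 to 4095 in D2 Hfe-/- and 3824 to 6500.3 in wild-type duodenum. All 9 B and plasma cell markers were below 0 with a median of -0.85, and their summed signal was 11752, 7133 and 6784 in D2 Hfe-/- mice 1, 2 and 3, against 10231 to 11388 in wild-type duodenum. Of 11 macrophage and dendritic cell markers 8 were below 0 with a median of -0.30, and their summed signal was 1268 to 1784 in D2 Hfe-/- and 1684 to 1948 in wild-type duodenum. All 11 pancreatic acinar markers were below 0 with a median of -3.03, and their summed signal was 92895, 1939 and 2661 in D2 Hfe-/- mice 1, 2 and 3, against 27697 to 64424 in wild-type duodenum. For the B and plasma cell and the acinar markers, Hfe-/- mouse 1 was thus above all wild-type arrays and mice 2 and 3 were below them. With the acinar score as a covariate no gene was called and all 45 stayed below 0. The part of the immune cells in the result was not tested.

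**Figure D4:**
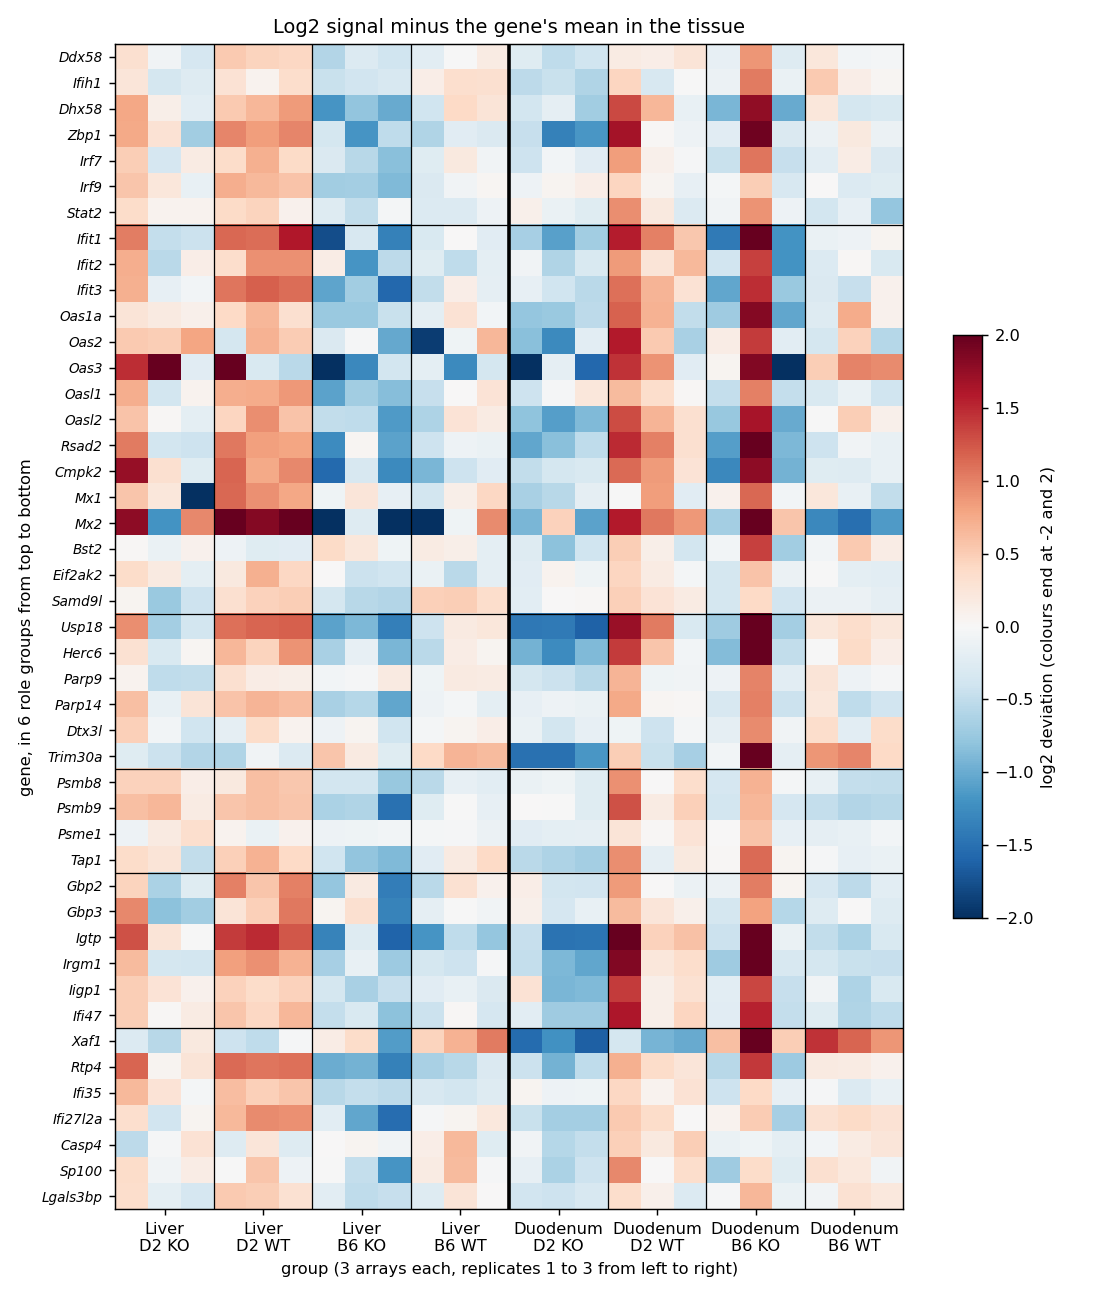
Log2 signal minus the gene's mean in the tissue for the 45 genes (rows, in the 6 role groups) on the 24 arrays (columns, 3 a group), with blue for lower and red for higher. The columns of duodenum B6 Hfe-/- mouse 2 and duodenum D2 wild-type mouse 1 are red through nearly all rows, and those of duodenum D2 Hfe-/- mice are mostly blue.

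In the duodenum of B6 mice none of the 45 genes was called by limma between Hfe-/- and wild-type mice, where 0.00772% of all genes were called lower and 0% higher, and 2 had an unadjusted p under 0.05, against 5.41% of all genes. The difference was above 0 in 36 genes with a median of 0.13, but this turned with 1 array. Without B6 Hfe-/- mouse 2 the median was -0.25 and 33 genes were below 0. The 3 genes with the smallest p were Mx2, Gbp2 and Stat2. Mx2 had 5.40, 36.2 and 12.8 in B6 Hfe-/- duodenum, against 3.56, 3.04 and 3.96 in wild-type duodenum, a difference of 1.96 (standard error 0.64, adjusted p = 0.873), on low signals. Gbp2, a guanylate-binding GTPase, had 131, 288 and 148 in B6 Hfe-/- duodenum, against 112, 98.4 and 122 in wild-type duodenum, a difference of 0.68 (standard error 0.29, adjusted p = 0.873). Stat2, the STAT protein that binds Irf9, had 67.3, 132 and 66.2 in B6 Hfe-/- duodenum, against 55.1, 63.5 and 41.4 in wild-type duodenum, a difference of 0.68 (standard error 0.31, adjusted p = 0.874). In all 3 genes mouse 2 carried the highest signal, and the lowest Hfe-/- signal still lay above the highest wild-type signal. This was so in 5 of the 45 genes, against 5.01% of all genes.

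Usp18 shows how mouse 2 set the average. It had 64.7, 637 and 66.3 in B6 Hfe-/- duodenum, against 124, 135 and 124 in wild-type duodenum, so that mice 1 and 3 were below and mouse 2 above all wild-type mice. Rsad2 was arranged in the same way, with 173, 1706 and 199 in B6 Hfe-/- duodenum, against 279.9, 353 and 338 in wild-type duodenum. B6 Hfe-/- mouse 1 shared the run and station of the 3 B6 wild-type duodenum arrays, and against them its median difference was -0.22, with 32 genes below 0. Mice 2 and 3 were hybridized in another run. By role, the median difference over all 3 mice was 0.70 for the GTPases, 0.49 for antigen processing, 0.17 for the sensors and signal relay, 0.12 for the antiviral effectors, 0.10 for the modifying enzymes and -0.10 for the other induced genes. The summed signal of the T and NK cell markers was 3174, 6335 and 3850.5 on the 3 B6 Hfe-/- arrays, against 3723 to 4685 on the wild-type arrays.

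The knockout effect in D2 duodenum minus that in B6 duodenum was below 0 in all 45 genes with a median of -1.05. It was called by limma for none, where 0.0154% of all genes were called, and 17 genes had an unadjusted p under 0.05, against 10.5% of all genes. Without B6 Hfe-/- mouse 2 the median was -0.33 with 44 genes below 0, and without that array and D2 wild-type mouse 1 it was -0.17 with 35 below 0. In the fit of all arrays, marker lists were below 0 as well. These were 11 of 13 T and NK cell markers (median -0.61), 7 of 9 B and plasma cell markers (-0.92) and 9 of 11 macrophage and dendritic cell markers (-0.31). All 11 pancreatic acinar markers were below 0 (-4.08), and 4 of 7 enterocyte markers (-0.10). Their part in the result was not tested.

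Between wild-type mice, the duodenum of D2 had 1 of 45 genes called lower than in B6 (1.99% of all genes) and none called higher (1.34% of all genes). The gene was Xaf1, which encodes a partner of the apoptosis inhibitor XIAP. It had 77.2, 51.3 and 48.6 in D2 wild-type duodenum, against 266, 219 and 181 in B6 wild-type duodenum, a difference of -1.93 (standard error 0.35, adjusted p = 0.00411). A second Xaf1 probe set with only a slightly lower mean signal gave 5.88 (adjusted p = 8.99e-08) in duodenum and 5.33 (adjusted p = 1.09e-05) in liver, so that the direction of Xaf1 between the strains depends on the probe set. The difference was above 0 in 37 of the 45 genes, and the median was 0.46. The D2 arrays were all above the B6 arrays in 19 genes, against 11.5% of all genes, and 9 genes had an unadjusted p under 0.05, against 18.1% of all genes. Psmb9 had 1671, 777 and 969 in D2 duodenum, against 499, 464 and 470.4 in B6 duodenum, a difference of 1.18 (standard error 0.28, adjusted p = 0.0212). Mx2 had 26.0, 18.1 and 15.8 in D2 duodenum, against 3.56, 3.04 and 3.96 in B6 duodenum, a difference of 2.48 (standard error 0.64, adjusted p = 0.0356). Neither passed the threshold of 0.01, although the D2 signals lay above the B6 signals, and those of Mx2 were low in both strains. All 6 GTPases were above 0 in duodenum as in liver, without overlap of the groups, and their differences were between 0.50 for Gbp3 and 1.54 for Igtp.

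Without D2 wild-type mouse 1 the median was 0.26, and without B6 Hfe-/- mouse 2 4 genes were called, of which 3 were higher in D2. Xaf1 was not called without any one of the B6 wild-type arrays or of D2 wild-type mice 2 and 3. The wild-type duodenum arrays of the 2 strains were hybridized in different runs. With the run as a block, which links the strains only through the B6 Hfe-/- arrays, no gene was called, 29 genes were below 0 and the median was -0.25. B6 Hfe-/- mouse 1 shared the run of the B6 wild-type arrays, and mice 2 and 3 that of the D2 arrays. This fit therefore depends on mouse 2, which was above both others of its group in all 45 genes. No run held wild-type duodenum of both strains, so a difference within a run could not be had. The difference of the strain effect between duodenum and liver was called for none of the 45 genes (limma, where 1.37% of all genes were called), and 2 had an unadjusted p under 0.05, against 15.8% of all genes.

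**Figure D5:**
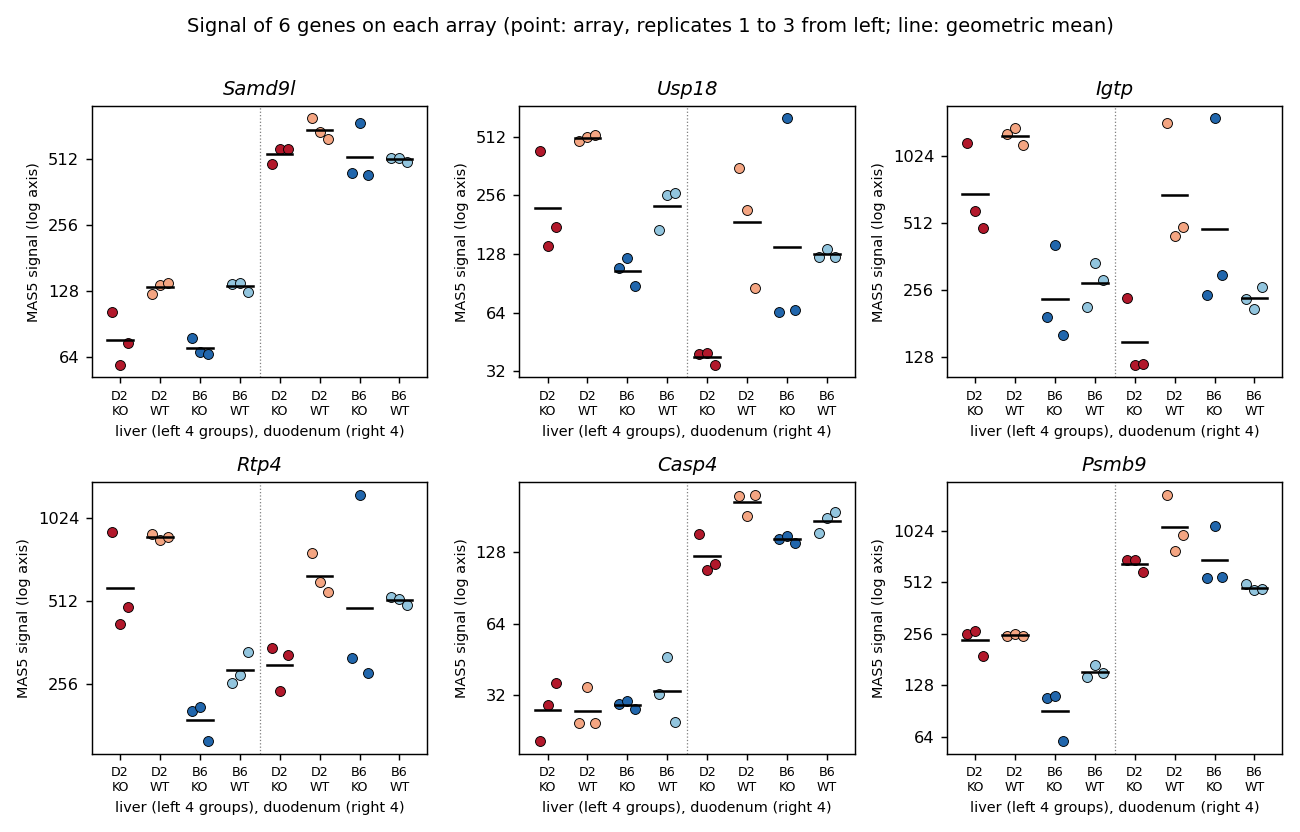
Signal on each of the 24 arrays, on a log axis, of Samd9l, Usp18, Igtp, Rtp4, Casp4 and Psmb9, with liver groups left and duodenum groups right of the dotted line; points are arrays and lines are geometric means of 3. Samd9l is lower in Hfe-/- liver of both strains, Igtp and Rtp4 are higher in D2 than in B6 wild-type liver, and mouse 2 of the B6 Hfe-/- group stands out in duodenum in all but Casp4.

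In the duodenum of wild-type mice 18 of 45 genes were higher than in liver (36.6% of all genes) and 6 were lower (26.6% of all genes), at an adjusted p of at most 0.01. In all, 24 of the 45 were called, against 63.2% of all genes. The study took both tissues from 3 mice of each kind, so liver and duodenum arrays shared mice, but the labels do not say which arrays, and the fit took all 24 as independent. Samd9l had signals of 432 to 785 (median 543) on the 12 duodenum arrays, against 59.2 to 140.3 (median 113) on the 12 liver arrays, and the difference between the tissues of wild-type mice was 2.15 (standard error 0.13, adjusted p = 1.55e-12). Oasl2 had signals of 215 to 1447 (median 478) on the 12 duodenum arrays, against 19.8 to 82.5 (median 46.1) on the 12 liver arrays, and the difference between the tissues of wild-type mice was 3.61 (standard error 0.32, adjusted p = 1.62e-09). For these genes the tissues did not overlap. All 4 genes of antigen processing were higher in duodenum, with differences between 0.84 for Psme1 and 1.87 for Psmb9. Casp4 had signals of 108 to 223 (median 153) on the 12 duodenum arrays, against 20.5 to 46.2 (median 29.2) on the 12 liver arrays, and the difference between the tissues of wild-type mice was 2.64 (standard error 0.16, adjusted p = 1.65e-12). Also higher in duodenum were Oas3 by 3.62, Oas1a by 2.50, Oasl1 by 1.92, Sp100, a protein of nuclear bodies, by 1.79, Zbp1 by 1.45, Cmpk2 by 1.39, Ifi35 by 1.34, Lgals3bp by 1.29, Gbp2 by 0.88, Eif2ak2, the kinase PKR, by 0.71 and Ifih1 by 0.53. Oas3 had liver signals of only 0.666 to 28.0 (median 3.05), so the size of its difference is uncertain. Among the genes lower in duodenum, Iigp1 had signals of 139.6 to 694 (median 239) on the 12 duodenum arrays, against 3532 to 7831 (median 5428) on the 12 liver arrays, and the difference between the tissues of wild-type mice was -4.37 (standard error 0.26, adjusted p = 1.72e-12). Bst2 had signals of 36.2 to 165 (median 61.5) on the 12 duodenum arrays, against 647 to 999.7 (median 749) on the 12 liver arrays, and the difference between the tissues of wild-type mice was -3.36 (standard error 0.23, adjusted p = 2.18e-11). Bst2 encodes tetherin, which holds budding viruses at the cell surface. Irgm1 was lower as well, with -1.76 (standard error 0.36, adjusted p = 0.000215), as were Mx2 with -2.02 (standard error 0.64, adjusted p = 0.0091), Irf9 with -0.50 (standard error 0.13, adjusted p = 0.00183) and Stat2 with -0.61 (standard error 0.19, adjusted p = 0.00723). The Mx2 difference too rests on low signals, 3.04 to 36.2 (median 8.64) on the duodenum arrays. With the run as a block 9 genes were called, 7 higher and 2 lower. The count was 31 without duodenum B6 Hfe-/- mouse 2. The knockout effect of D2 mice differed between duodenum and liver for none of the 45 genes (limma, where 1.35% of all genes were called), and 3 had an unadjusted p under 0.05, against 13.1% of all genes. It was called for 1 when liver D2 Hfe-/- mouse 1 or duodenum B6 Hfe-/- mouse 2 was left out.

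The genes upstream of these targets were looked at from lists of 15 interferons and receptors and 26 kinases, adaptors and regulators. Of the first list 7 genes passed the filter and of the second 20, and limma called none of them in the 4 knockout comparisons or the 2 strain comparisons. Of the first list 0 genes had an unadjusted p under 0.05 in D2 liver, 1 in B6 liver and 0 in either duodenum comparison of the knockout. Of the 20 genes of the second list, 1 did in D2 liver (15% of all genes), 2 in B6 liver (12.7% of all genes), 2 in D2 duodenum (12.6% of all genes) and 1 in B6 duodenum (5.41% of all genes). Between wild-type livers 1 of the 7 and 6 of the 20 did (22.7% of all genes), and between wild-type duodenums 2 of each list (18.1% of all genes). The interferon genes Ifnb1 and Ifng were below the filter, with signals of 0.589 to 22.8 and 0.728 to 13.6 over the 24 arrays. Ifnar1, the first subunit of the type I receptor, differed between wild-type D2 and B6 livers by 0.51 (standard error 0.13, adjusted p = 0.0252), and Mavs, the mitochondrial adaptor of RNA sensing, by -0.48 (standard error 0.12, adjusted p = 0.0176). Nlrc5, the transactivator of the antigen processing genes, had 25.3, 18.1 and 20.4 in D2 Hfe-/- duodenum, against 78.4, 51.6 and 62.7 in wild-type duodenum, a difference of -1.59 (standard error 0.40, adjusted p = 0.167). Irf2, a repressor of interferon targets, had a difference of -0.50 (standard error 0.15, adjusted p = 0.194) in B6 liver.

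Probe sets of a gene did not always give the same direction. In 19 of the 45 genes there were 26 further probe sets past the filter. Their differences had the sign of the chosen probe set in 20 of 26 for D2 liver, 22 for B6 liver, 25 for D2 duodenum and 19 for B6 duodenum, and in 21 for the strains in either tissue. Close copies of Ifit3, Oas1a, Trim30a and Ifi27l2a exist in the mouse genome, and whether the probes tell them apart was not tested.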

How the data were processed

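RNA of liver and duodenum was hybridized to 24 Affymetrix Mouse Genome arrays, 3 per group in 8 groups. The deposited intensity values are MAS5 signals per probe set, which the authors scaled on each array to a target mean of 100, with no log and no pooling. The genome build is not given in the sources used here. The deposited experiment files of the arrays gave the hybridization times and the fluidics stations, under the unit other, and hold no expression values. The 5 hybridization runs were inferred from these times. The study's own score and its test need probe-level files, which were not used here.

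Signals were converted to log2 without a pseudocount and tested with limma 3.58.1 (lmFit, eBayes with trend) in R 4.3.3 with the data.table package (version 1.17.8), with 4 groups per tissue and all 24 arrays for comparisons of tissues. Of 45101 probe sets, 28061 were tested, those whose 3 highest signals in liver or in duodenum all reached 20, and Benjamini-Hochberg adjustment ran over all of these. Calls needed an adjusted p no higher than 0.1 (knockout effects and their interactions) or 0.01 (strains and tissues). A test of 3 against 3 arrays by exact permutation cannot go below 0.1. The number of arrays limits the precision, and array medians were 15.8 to 23.4. The steps were tested on simulated data with noise drawn independently for each probe set and array. Shifts of many genes together on 1 array were not simulated, so the simulation says nothing about them. The members, lists and roles were chosen with earlier results of these data known. Values on every array are given for genes called in a knockout comparison, for up to 10 called between the strains, and, where none was called, for the 3 with the smallest p; other genes given by array were chosen after their values were seen. Alternatives were another pseudocount, normalization, filter, threshold, probe set rule, variance model and block, and leaving out each array. Liver and duodenum came from the same 3 mice of each kind, but the labels do not tie arrays to a mouse, so comparisons of tissues treated the arrays as independent. Figures were drawn with matplotlib 3.10.9 in Python 3.11.15.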

Additional observations from a re-analysis of the deposited data

Results flagged for a closer look

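In B6 mice, 2 genes of antigen processing had every Hfe-/- array below every wild-type array in liver and above every one in duodenum. Neither gene was called by limma in either tissue. Psmb9 differed between Hfe-/- and wild-type mice by -0.77 in liver (adjusted p = 0.118) and by 0.53 in duodenum (adjusted p = 0.874). Tap1 differed by -0.81 in liver (adjusted p = 0.152) and by 0.51 in duodenum (adjusted p = 0.874). The difference between the tissues was not tested for either gene. Of all genes, 9.4% had every B6 Hfe-/- array below every wild-type array in liver, and 5.01% had every one above in duodenum. The share of all genes with both was not computed. Psmb9 and Tap1 were found by looking through all 45 genes in both strains. In duodenum, both genes were highest in B6 Hfe-/- mouse 2, the array that was above the others of its group in all 45 genes.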

How the results depend on the processing

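Counts below are members called, and the percentage of all genes called under each alternative is not given here. In D2 liver (5 between Hfe-/- and wild-type) the count was 1 at an adjusted p of 0.05, 2 with only the arrays compared, 3 with the replicate number as a block, and 0 with no variance trend or with the run as a block; leaving out 1 array gave 0 to 22. In B6 liver (3) it was 5 with no filter, 8 with a filter at 100, 5 with a filter on the mean, 1 at an adjusted p of 0.05, 0 with no trend and 0 with the run as a block, and 0 to 9 without 1 array. The difference of the strains' knockout effects in liver (0) gave 0 to 2. Between wild-type livers (10) it was 18 at 0.05, 20 with only the arrays compared, 1 with no trend and 2 with the run, and 4 to 16 without 1 array. In D2 duodenum (1) it was 0 at 0.05, 2 with only the arrays compared, and 0 with no trend, with the replicate number, the run, or the run with the station as a block, or with the acinar score as a covariate. It was 9 without both arrays that stand apart and 0 to 14 without 1 array. In B6 duodenum (0) it was 1, lower, without both arrays and 0 to 0 without 1 array, as for the difference of the knockout effects. Between wild-type duodenums (1) it was 3 at 0.05, 0 with no trend, with the run or with the run and station, 3 without both arrays, and 0 to 4 without 1 array. Between tissues (24) it was 9 with the run and 20 to 31 without 1 array. The tissue difference of the D2 knockout effect (0) gave 0 to 1, and that of the strain difference (0) gave 1 with only the arrays compared and 0 to 0 without 1 array. The causes were not tested.

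With the mean of its probe sets, Xaf1 in wild-type duodenum turned to 1.98 (adjusted p = 0.000725, limma). Over the called genes and their alternatives, 309 values kept direction and call, 156 lost the call and 1 turned. Of the medians over the members, 178 moved by less than the spread between replicates and 8 by more, and the sign turned in 6 of the 178 and 3 of the 8. In B6 duodenum the median was -0.25 to 0.50 without 1 array. Deviations from the group means correlated at -0.16 to 0.12 in 18 pairs of arrays of the same tissue and replicate number. In 12 pairs of duodenum with liver they correlated at -0.02 to 0.03. Pairs of the same tissue hold different mice, so they cannot show whether a replicate number ties both tissues to a mouse. The block on the replicate number otherwise moved no count by over 1.5 times. The station, acinar and 2-array alternatives were chosen after seeing the data. Signals near background and 3 arrays a group limit what could be called.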
